A study of Saccharomyces cerevisiae with 63 samples.

Results

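Transcripts of 9 budding yeast genes that act in the meiosis I division were followed through meiosis in 3 strains. They were taken by gene name out of a table of 6088 genes. MAM1, LRS4, SPO13, SGO1 and CDC5 act in the meiosis I pattern of chromosome segregation. AMA1, CDC20 and CDH1 activate the anaphase-promoting complex (APC/C), and MND2 is an APC/C subunit that restrains one of these activators. The study sequenced polyadenylated RNA in 63 libraries. All strains were SK1 diploids in which IME1, the inducer of meiosis, was under a copper-inducible promoter (pCUP-IME1). The 3 genotypes were an ime4 mutant, a pho92 mutant and a control called WT, which carried pCUP-IME1 as well. All were sampled at 0, 2, 3, 5, 6, 7 and 9 h in sporulation medium of 0.3% potassium acetate at 30 °C, and 50 µM copper sulfate was added at 2 h. The series' design text gives 3 biological replicates for every strain and time, 21 groups in all. How each mutant allele was made and how many clones stand behind a strain were not used here.

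In meiosis I sister kinetochores attach to the same spindle pole and homologous chromosomes part, while sister centromeres stay joined. Monopolin, which holds Mam1, Lrs4, Csm1 and the kinase Hrr25, joins sister kinetochores. Sgo1, the shugoshin, protects centromeric cohesin, Spo13 is a meiosis-specific partner of both processes, and the Polo kinase Cdc5 recruits monopolin and drives exit from pachytene. The APC/C marks securin and cyclins for destruction when bound to an activator: Cdc20 at anaphase, Cdh1 in G1, and Ama1 in meiosis alone. Mnd2 keeps APC/C-Ama1 inactive through prophase. IME4 encodes the mRNA N6-methyladenosine (m6A) methyltransferase of yeast and PHO92 encodes its m6A reader, so the design asks how the course of these transcripts depends on the writer and the reader.

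Middle meiotic genes are transcribed by Ndt80 through the middle sporulation element (MSE), and early meiotic genes by Ime1 with Ume6 through URS1. Promoter stretches are shown because the 9 genes divide into an early and a middle group by the time of their peak in WT. That grouping assigns no regulator. The 250 bases before each start codon were read on the R64 reference of strain S288C, whose bases may differ from those of SK1. The words searched on both strands were CACAAA or CGCAAA as the MSE core, GNCACAAA or GNCGCAAA as a longer MSE form that contains the core, and GGCGGC as the URS1 core. Capitals mark the match, and sequences run 5′ to 3′ on the strand of the gene.
MAM1, chrV:372160-372187: atactttctatTTTGTGtcactaatttt
SGO1, chrXV:464632-464659: caaagaaatttCACAAAgtgagcgtcta
CDC5, chrXIII:271260-271287: tattttttgtaCACAAAaacattggctt
CDC20, chrVII:289690-289717: gactaatctgcTTTGCGactttgatttt
CDC20, chrVII:289705-289732: cgactttgattTTTGTGtccaattggaa
CDH1, chrVII:494318-494345: tttttatcccaCACAAAatggttttttg
SPO13, chrVIII:131941-131968: attgagaaataGCCGCCgacaaaaagga
The MSE core stood in 5 of the 9 promoter windows (MAM1, SGO1, CDC5, CDC20 and CDH1), against 25.7% of 6001 windows of the same length. The longer form stood in those of MAM1, CDC5 and CDC20, against 6.03% of all windows, in CDC5 at a second core match that is not shown, 249 bases from the start codon. The URS1 core stood in that of SPO13 alone, against 4.17% of all windows. AMA1, LRS4 and MND2 held none of these words in the window, which says nothing about binding there.

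The genes lie apart in the R64 genome. MAM1 (YER106W) is at chrV:372326-373234, LRS4 (YDR439W) at chrIV:1339676-1340719 and SPO13 (YHR014W) at chrVIII:132047-132922. SGO1 (YOR073W) is at chrXV:464771-466543 and CDC5 (YMR001C) at chrXIII:269019-271136. CDC20 (YGL116W) is at chrVII:289809-291641, CDH1 (YGL003C) at chrVII:492474-494174 and MND2 (YIR025W) at chrIX:403659-404765. AMA1 (YGR225W), at chrVII:945145-947019, has an intron of 93 bases (chrVII:946328-946420), and the gene counts do not separate spliced from unspliced RNA. No other annotated gene overlaps any of the 9.

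Total counts ran between 12826747 and 33048881 per library (median 16834032). Levels are CPM values, the counts of a gene relative to the library size, with library sizes scaled by the trimmed mean of M-values (TMM). The strain labels were checked on the mutated genes: IME4, which an antisense gene overlaps, had at most 2.37 CPM in ime4 libraries and at least 37.4 CPM in WT libraries. PHO92 had at most 4.27 CPM in pho92 libraries, and between 4.42 and 2232.2 CPM in WT libraries. NDT80, the regulator of the middle programme, reached 3841.7 CPM in ime4, 3919.3 CPM in pho92 and 6517.8 CPM in WT libraries. At 2 h IME1 was at 4129.1 to 4659.0 CPM in ime4, 1804.4 to 3402.1 CPM in pho92 and 3382.2 to 3495.9 CPM in WT libraries. Every ime4 library was then above every WT library. The part of the IME1 level in the results below was not tested. Of 8 genes that mark vegetative G1 cells, none was at 0 in any library. At 6 h their summed level was 297.3 to 338.7 CPM in ime4, 204.6 to 223.6 CPM in pho92 and 156.6 to 163.5 CPM in WT libraries. At 9 h it was 311.1 to 465.2 CPM in ime4, 234.5 to 276.1 CPM in pho92 and 197.7 to 218.7 CPM in WT libraries. The summed level of 6 haploid markers, none at 0, was 141.2 to 162.8 CPM in ime4, 114.6 to 122.9 CPM in pho92 and 164.7 to 223.9 CPM in WT libraries at 6 h. At 9 h it was 221.5 to 270.4 CPM in ime4, 152.0 to 175.8 CPM in pho92 and 114.8 to 125.1 CPM in WT libraries. The part of such cells in the results below was not tested. In bulk RNA, fewer cells at a stage and less RNA per cell cannot be told apart.

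By the time of the highest mean in WT, 3 genes, called early here, peaked at 5 h and 6, called middle, at 6 or 7 h. The names stand for these peak times alone and assign no regulator. Differences from WT split by these groups draw on the same WT libraries. SPO13 had 128.4, 91.0 and 66.0 CPM at 2 h and 673.4, 576.2 and 588.5 CPM at 3 h. It stayed at 573.5, 656.8 and 649.0 CPM at 5 h and then came down to 87.1, 92.2 and 77.9 CPM at 9 h. Its mean at 5 h was 364-fold its mean of 1.72 ± 1.80 CPM at 0 h (SD, n = 3). LRS4 and MND2 peaked at 5 h too, with a narrower range, and were lowest at 9 h, where SPO13 was lowest at 0 h. MND2 had 47.2, 44.8 and 45.0 CPM at 0 h, 147.7, 150.6 and 163.5 CPM at 5 h, and 19.4, 12.2 and 13.1 CPM at 9 h. LRS4 peaked at 5 h with 107.8 ± 2.71 CPM, and its level at 9 h was 18.0 ± 2.56 CPM (SD, n = 3). In both genes all 3 libraries at 5 h lay above those at 0 h and at 9 h.

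Among the 6 middle genes, CDC5, MAM1 and SGO1 had their highest mean at 6 h. In the test that follows, CDC5, MAM1 and CDC20 did not pass between 6 and 7 h. CDC5 had 73.7, 75.1 and 56.5 CPM at 3 h, 1896.7, 772.7 and 441.1 CPM at 5 h, and 2875.7, 3816.1 and 3577.3 CPM at 6 h, its highest time. MAM1 had 41.7, 36.6 and 30.3 CPM at 3 h, 432.3, 286.4 and 205.1 CPM at 5 h, and 587.3, 771.4 and 666.7 CPM at 6 h. SGO1 had 37.6, 31.4 and 24.0 CPM at 2 h, 131.8, 159.5 and 121.3 CPM at 3 h, and 960.0, 1286.2 and 1131.6 CPM at 6 h. SGO1 and AMA1 were already higher at 2 h than at 0 h in the test that follows. At 5 h, WT replicate 1 was above the other 2 libraries for these 3 genes and for CDC20 and CDH1, and also for NDT80 (1661.9 CPM, against 814.9 and 606.4 CPM). The APC/C activators had their highest mean 1 time point later, though the rise of CDC20 from 6 h did not pass. AMA1 reached 23618.5, 21024.5 and 19756.0 CPM at 7 h, CDC20 5604.1, 4820.6 and 4899.3 CPM, and CDH1 1903.2, 2042.6 and 2143.4 CPM. AMA1 differed from the other activators at the start: it was already at 1019.9 ± 74.3 CPM at 3 h, when CDC20 was at 24.3 ± 0.52 CPM and CDH1 at 62.9 ± 2.47 CPM, both at their lowest (SD, n = 3).

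Per kb of gene length, the peak means in WT ran from AMA1 (12059.8 CPM per kb) through CDC20 (2788.2), CDC5 (1616.9) and CDH1 (1194.0) to MAM1 (741.1 ± 101.3), SPO13 (715.9 ± 52.6) and SGO1 (635.4 ± 92.1), and then to MND2 (139.6) and LRS4 (103.4 CPM per kb). The peaks of MAM1, SPO13 and SGO1 did not differ beyond their SDs (n = 3).

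**Figure D1:**
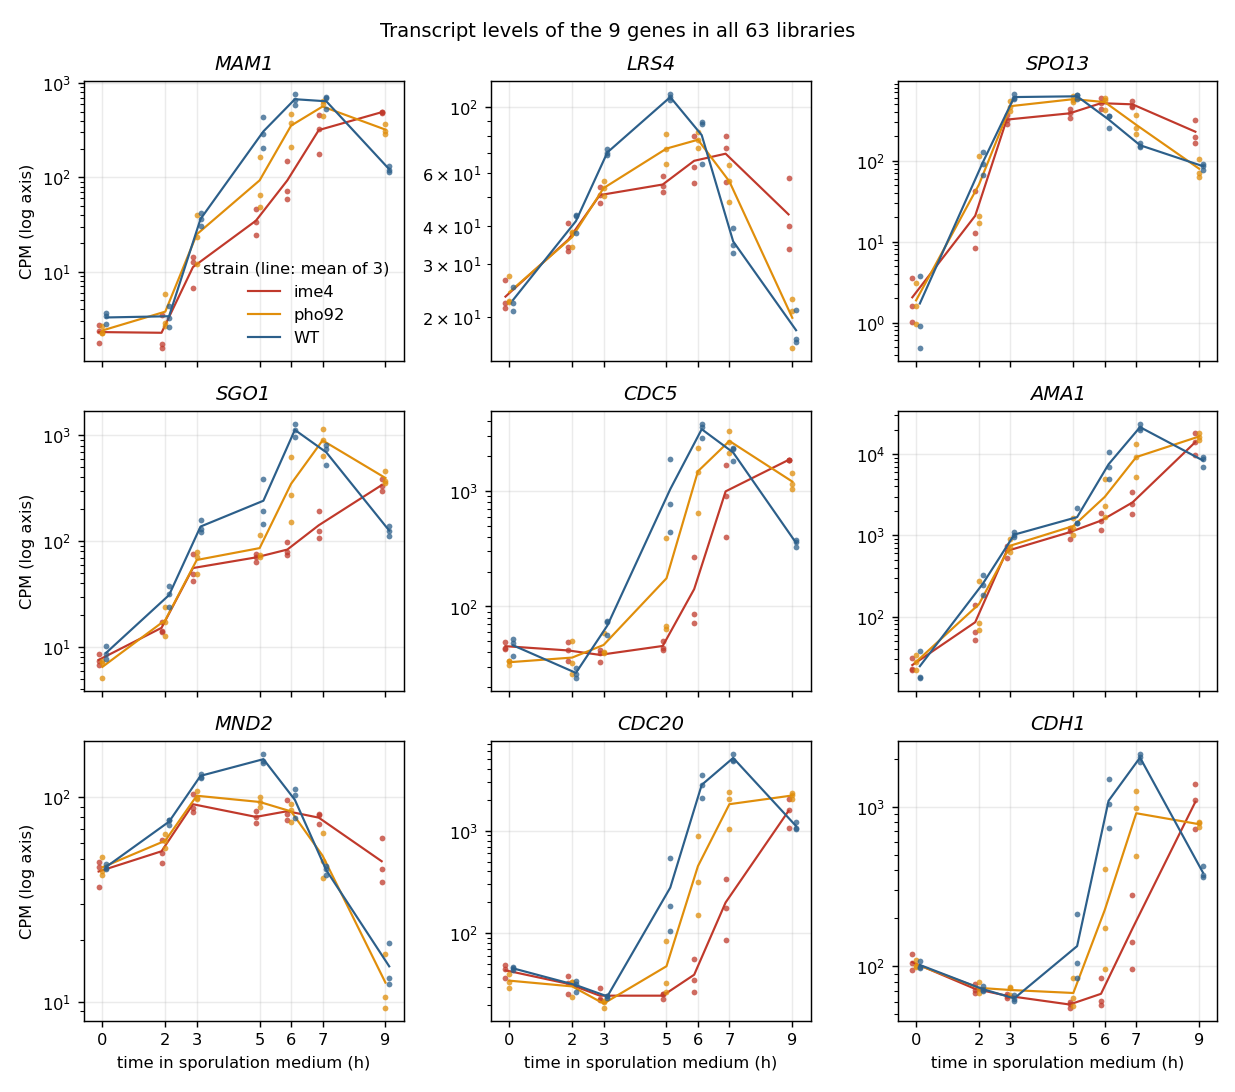
Level of each gene in every library, in CPM on a log axis, against hours in sporulation medium; points are libraries and lines are means of 3, for ime4, pho92 and WT. In WT, CDC5 is highest at 6 h with 2875.7 to 3816.1 CPM and AMA1 at 7 h with 19756.0 to 23618.5 CPM, while in ime4 both are highest at 9 h.

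Successive WT times were compared with edgeR's quasi-likelihood test in a single fit to all libraries. Here and below a gene passed at an adjusted p under 0.05 (Benjamini-Hochberg over the 5822 genes tested, among them all 9). From here on, fold changes are log2 values with the standard error (SE) of that fit. Shares of all genes count those that passed in either direction. Where libraries are said not to overlap, the share of all genes without overlap was not counted. Between 0 and 2 h, 5 of the 9 genes passed, all higher at 2 h, while 56.9% of all genes passed; SPO13 (5.86, SE 0.59, adjusted p = 9.41e-12) and AMA1 (3.37, SE 0.44, adjusted p = 7.01e-09) led, and SGO1 (1.81, SE 0.33, adjusted p = 9.02e-06) passed too. Without WT replicate 1 SPO13 was at 6.85. Between 2 and 3 h, 7 passed, all higher at 3 h, against 65.6% of all genes. CDC20 (-0.37) and CDH1 (-0.19) were the 2 that did not pass, and CDC5 (1.36) passed with all libraries but not without WT replicate 2 (1.18, adjusted p = 0.104). Between 3 and 5 h, 6 passed, all higher at 5 h, against 52.2% of all genes, with CDC5 (3.92, SE 0.52), CDC20 (3.52, SE 0.47) and MAM1 (3.09, SE 0.40) the largest. Without WT replicate 1 the changes at this step were smaller: 3.22 for CDC5, 2.58 for CDC20, 0.60 for CDH1 (adjusted p = 0.206) and 0.28 for SGO1 (adjusted p = 0.553), the last 2 no longer passing.

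Between 5 and 6 h, 8 of the 9 passed, against 75.7% of all genes, 6 of them higher at 6 h. CDC20 (3.32, SE 0.47), CDH1 (3.03, SE 0.34), SGO1 (2.22, SE 0.32) and AMA1 (2.16, SE 0.41) rose the most. MND2 fell by 0.66 (SE 0.16, adjusted p = 0.000359) and LRS4 fell by 0.42 (SE 0.15, adjusted p = 0.0103), though LRS4 did not pass without WT replicate 1 (-0.28, adjusted p = 0.165). MAM1 (1.13) did not pass without WT replicate 2 (0.97) or 3 (0.89) or with total counts (0.30), and CDC5 (1.72) was at 2.60 without WT replicate 1 and at 0.93 (adjusted p = 0.0522) with total counts. Without WT replicate 1, CDC20 was at 4.07 and SGO1 at 2.83. Between 6 and 7 h, 6 passed, against 59.9% of all genes. AMA1 (1.52, adjusted p = 0.00132) and CDH1 (0.90, adjusted p = 0.014) were higher at 7 h. LRS4 (-1.18) and MND2 (-1.15) were lower at 7 h, and so were SPO13 (-1.06, adjusted p = 0.04) and SGO1 (-0.71, adjusted p = 0.0456). Both of these calls were lost when any one WT replicate was left out, with RLE factors and in DESeq2. The CDH1 call at this step was lost without WT replicate 2 (0.87, adjusted p = 0.0849) or 3 (0.67, adjusted p = 0.169). It was also lost with total counts (0.28, adjusted p = 0.314). CDC20, CDC5 and MAM1 did not pass at this step. Between 7 and 9 h, 8 passed, all lower at 9 h, against 81.5% of all genes, and SPO13 (-0.86, adjusted p = 0.0758) did not. CDC5 (-2.60, SE 0.49), SGO1 (-2.46, SE 0.33), MAM1 (-2.39, SE 0.39), CDH1 (-2.39, SE 0.33) and CDC20 (-2.21, SE 0.45) fell the most. With total counts LRS4 (-0.98) stood at 0.02 and AMA1 (-1.36) at -0.38, neither passing.

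The difference between ime4 and WT changed sign over the course: 7 of the 9 genes, all but AMA1 and CDC20, passed as lower in ime4 at some time before 7 h and as higher at 9 h. The share of all genes with both calls was not counted, so this count has nothing to be set against. SPO13 enters it through its 2 h call alone, which was lost without replicate 2 of all strains (-1.96, adjusted p = 0.104). At 0 h none passed in edgeR's test, none had an unadjusted p under 0.05 and none passed in DESeq2, while 0.258% of all genes passed. At 2 h, 4 were lower in ime4, while 12.4% of all genes passed. SPO13 had 8.30, 12.7 and 41.8 CPM in ime4 and 128.4, 91.0 and 66.0 CPM in WT at 2 h, with no overlap, a change of -2.18 (SE 0.47, adjusted p = 0.000941). Without ime4 replicate 3, its highest ime4 library, the change was -3.18. AMA1 (-1.57, adjusted p = 0.00613), SGO1 (-1.03, adjusted p = 0.0254) and MND2 (-0.48, adjusted p = 0.0422) also passed. AMA1 did not without ime4 replicate 1 (-1.40, adjusted p = 0.0742) or 2 (-1.31, adjusted p = 0.0936). SGO1 did not without either of these (-0.97 and -0.98) or without WT replicate 1 (-0.85) or 2 (-1.01), and MND2 without any of 6 replicates (-0.50 to -0.39). At 3 h, 4 were lower in ime4, against 30.6% of all genes: MAM1 (-1.69, adjusted p = 0.00078), SGO1 (-1.30, adjusted p = 0.0014), LRS4 (-0.47, adjusted p = 0.0137) and MND2 (-0.46, adjusted p = 0.0254). LRS4 did not pass without WT replicate 2 (-0.46), nor MND2 without ime4 replicate 2 (-0.40) or 3 (-0.43) or any WT replicate (-0.46 to -0.43). With total counts LRS4 (-0.35, adjusted p = 0.244) and MND2 (-0.34, adjusted p = 0.287) did not pass. MAM1 (-1.42, adjusted p = 0.107) and SGO1 (-1.01, adjusted p = 0.192) failed without replicate 2 of all strains.

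At 5 and 6 h the middle genes passed as lower in ime4, except AMA1 at 5 h. AMA1 then had a mean of 1091.8 CPM in ime4 and 1675.6 CPM in WT and did not pass. CDC5 had 44.1, 42.1 and 50.4 CPM in ime4 and 1896.7, 772.7 and 441.1 CPM in WT at 5 h. At 6 h it had 86.5, 71.3 and 266.0 CPM in ime4 and 2875.7, 3816.1 and 3577.3 CPM in WT. No ime4 library reached the lowest WT library at either time. CDC20 had 35.3, 27.1 and 56.0 CPM in ime4 and 3476.7, 2804.0 and 2095.3 CPM in WT at 6 h, the largest difference of the 9 genes at -6.14 (SE 0.53, adjusted p = 4.3e-14). At 5 h, 7 of the 9 were lower in ime4, against 49.5% of all genes that passed: CDC5 (-4.51, SE 0.53), CDC20 (-3.50, SE 0.47), MAM1 (-3.15, SE 0.40), SGO1 (-1.78, SE 0.32), CDH1 (-1.22, SE 0.32), LRS4 (-0.97, SE 0.15) and MND2 (-0.94, SE 0.16). Without WT replicate 1, CDC5 was at -3.73 and CDC20 at -2.55, and CDH1 did not pass (-0.71, adjusted p = 0.0899).

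At 6 h, 6 of the 9 were lower in ime4, a share not above the 78.1% of all genes that passed, but the median change of the 9 was -2.86, against 0.21 over all genes. Beside CDC20, these were CDC5 (-4.60, SE 0.54, adjusted p = 1.62e-10), CDH1 (-4.02, SE 0.36, adjusted p = 9.72e-14), SGO1 (-3.75, SE 0.34, adjusted p = 1.9e-13), MAM1 (-2.86, SE 0.39, adjusted p = 1.03e-08) and AMA1 (-2.30, SE 0.42, adjusted p = 3.25e-06). AMA1 stood highest of the activators in ime4 libraries per kb as well as in CPM, at 1513.5, 1154.9 and 1881.7 CPM, against 10585.5, 6929.9 and 4939.8 CPM in WT. The early genes did not pass at 6 h: SPO13 was at 0.67 (adjusted p = 0.167), LRS4 at -0.29 (adjusted p = 0.0756) and MND2 at -0.19 (adjusted p = 0.288). LRS4 passed as lower with RLE factors (-0.39, adjusted p = 0.0176) and in DESeq2 (-0.39, adjusted p = 0.0146). It also passed without ime4 replicate 3 (-0.45) or WT replicate 1 (-0.43). SPO13 passed as higher with only the compared libraries fitted (0.59, adjusted p = 0.0264). The scale of the libraries bears on these early genes. With total counts in place of TMM factors the median over all genes moved to 1.35, the 6 middle genes still passed as lower, and SPO13 (1.80), LRS4 (0.85) and MND2 (0.95) passed as higher in ime4. Without ime4 replicate 3, CDC5 was at -5.44.

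At 7 h all 9 passed, while 82.4% of all genes did: the 3 early genes were higher and the 6 middle ones lower in ime4. The groups were set by the course in WT, these 7 h libraries included, so this split is not independent of them. SPO13 had 555.2, 460.5 and 478.9 CPM in ime4 and 151.5, 166.6 and 148.5 CPM in WT (1.68, SE 0.46, adjusted p = 0.000888). LRS4 (0.98, SE 0.15, adjusted p = 1.71e-07) and MND2 (0.86, SE 0.17, adjusted p = 8.97e-06) were the other higher ones, and none of the 3 overlapped between strains. CDC20 (-4.68, SE 0.50), CDH1 (-3.56, SE 0.35) and AMA1 (-3.08, SE 0.43) were lower. AMA1 had 2408.4, 1811.9 and 3397.7 CPM in ime4 and 23618.5, 21024.5 and 19756.0 CPM in WT. CDC5 had 908.7, 398.9 and 1667.7 CPM in ime4 and 1816.3, 2345.6 and 2294.4 CPM in WT, so ime4 replicate 3 came close to the lowest WT library (-1.12, SE 0.47, adjusted p = 0.0257). Without ime4 replicate 3 the CDC5 change was -1.72 and that of CDC20 -5.28. CDC5 did not pass without ime4 replicate 1 (-1.06), ime4 replicate 2 (-0.66) or WT replicate 2 (-1.07), and MAM1 (-1.01, adjusted p = 0.011) did not without ime4 replicate 2 (-0.65). With total counts, which put the median over all genes at 1.98 against 0.20, MAM1 (0.73) and CDC5 (0.62) changed sign without passing and SGO1 stood at -0.54 (adjusted p = 0.0662), in place of -2.29.

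At 9 h, 7 of the 9 were higher in ime4 and none lower, while 80.2% of all genes passed. CDC5 had 1847.3, 1857.8 and 1861.9 CPM in ime4 and 362.7, 328.2 and 374.0 CPM in WT (2.39, SE 0.49, adjusted p = 2.07e-05). MAM1 had 499.1, 494.3 and 481.6 CPM in ime4 and 114.0, 119.6 and 132.3 CPM in WT (2.01, SE 0.38, adjusted p = 6.3e-06). MND2 had 44.5, 63.0 and 38.7 CPM in ime4 and 19.4, 12.2 and 13.1 CPM in WT (1.71, SE 0.17, adjusted p = 2.83e-12). For each of these genes every ime4 library exceeded every WT library. CDH1 (1.47, SE 0.32), SGO1 (1.43, SE 0.31), SPO13 (1.42, SE 0.46) and LRS4 (1.28, SE 0.16) also passed, SPO13 not without ime4 replicate 2 (0.98, adjusted p = 0.0686). AMA1 (0.75, adjusted p = 0.0791) and CDC20 (0.49, adjusted p = 0.288) did not pass. AMA1 passed in DESeq2 (0.83, adjusted p = 0.0458) and without pho92 replicate 1 (0.88, adjusted p = 0.0129). The median change of the 9 was 1.43, against 0.31 over all genes.

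**Figure D2:**
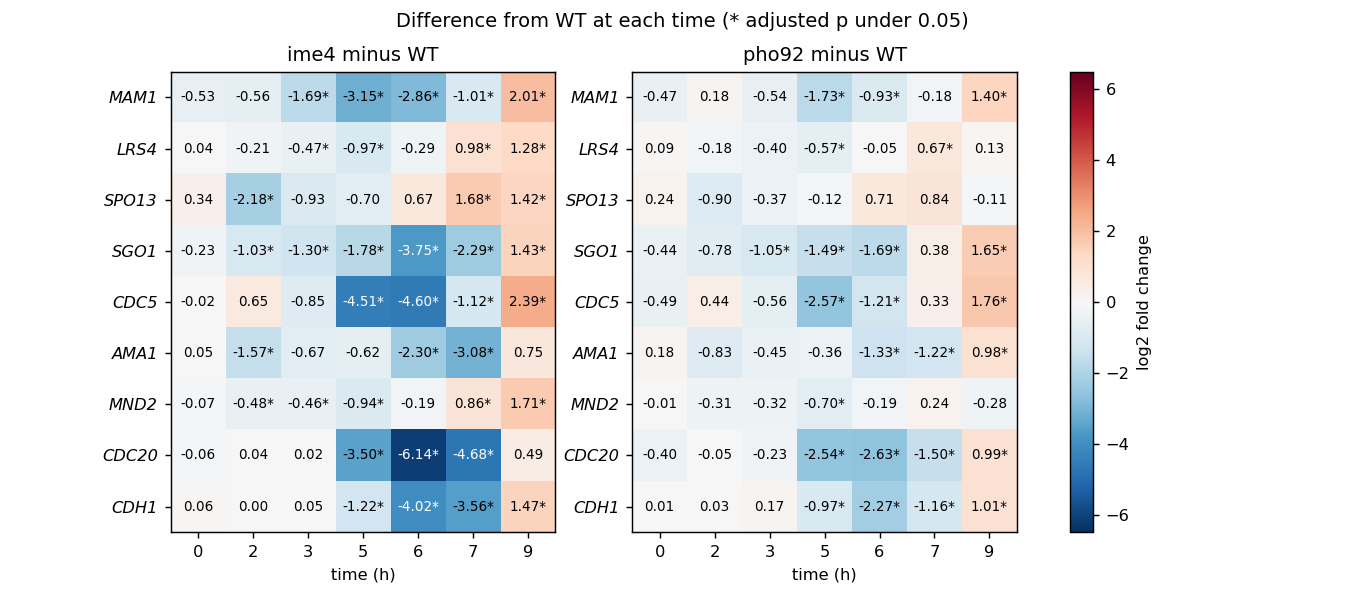
Log2 fold change of ime4 minus WT (left) and pho92 minus WT (right) for the 9 genes (rows) at 7 times (columns), red for higher and blue for lower in the mutant; an asterisk marks an adjusted p under 0.05. In ime4, CDC20 stands at -6.14 at 6 h and CDC5 at 2.39 at 9 h, and in pho92 CDC20 stands at -2.63 at 6 h and CDC5 at 1.76 at 9 h.

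In pho92 the 6 middle genes passed as lower than WT at 6 h and as higher at 9 h. Both mutants were set against the same WT libraries, so their values are given side by side and not compared here. At 0 h none of the 9 passed in edgeR's test or in DESeq2 and none had an unadjusted p under 0.05, while 18.1% of all genes passed. At 2 h none passed in either tool and 2 had an unadjusted p under 0.05, while 12.4% of all genes passed. At 3 h SGO1 alone was lower (-1.05, adjusted p = 0.0157), while 17.9% of all genes passed, and it did not pass without pho92 replicate 3 (-0.88) or WT replicate 2 (-0.94). SGO1 then had 79.0, 71.2 and 49.2 CPM in pho92 and 131.8, 159.5 and 121.3 CPM in WT. The groups did not overlap.

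At 5 h, 7 of the 9 were lower in pho92, while 33.6% of all genes passed: CDC5 (-2.57, SE 0.49, adjusted p = 6.86e-05), CDC20 (-2.54, SE 0.45, adjusted p = 2.55e-05), MAM1 (-1.73, SE 0.38), SGO1 (-1.49, SE 0.31), CDH1 (-0.97, SE 0.32), MND2 (-0.70, SE 0.16) and LRS4 (-0.57, SE 0.15). CDC5 had 393.8, 68.1 and 63.8 CPM in pho92 and 1896.7, 772.7 and 441.1 CPM in WT. In each strain replicate 1 was the highest by far, though the groups did not overlap. Without pho92 replicate 1, CDC5 was at -3.99, CDC20 at -3.24 and MAM1 at -2.45. Without WT replicate 1, CDC5 was at -1.80, CDC20 at -1.61 and CDH1 at -0.49 (adjusted p = 0.325), and CDH1 also failed without pho92 replicate 2 (-0.93, adjusted p = 0.0763). With only the 5 h libraries of the 2 strains fitted, CDC5 (adjusted p = 0.0607) and CDH1 (adjusted p = 0.0708) did not pass. With total counts, LRS4 (-0.37, adjusted p = 0.189) and MND2 (-0.50, adjusted p = 0.0904) did not pass.

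At 6 h, 6 of the 9 were lower in pho92, a share not above the 70.7% of all genes that passed, with a median over the 9 of -1.21 against 0.12 over all genes. CDC20 had 884.6, 319.1 and 149.6 CPM in pho92 and 3476.7, 2804.0 and 2095.3 CPM in WT (-2.63, SE 0.45, adjusted p = 2.59e-06). CDH1 had 406.9, 172.8 and 96.6 CPM in pho92 and 1487.8, 1045.3 and 731.9 CPM in WT (-2.27, SE 0.33, adjusted p = 1.28e-07). SGO1 had 619.0, 273.6 and 153.5 CPM in pho92 and 960.0, 1286.2 and 1131.6 CPM in WT (-1.69, SE 0.32, adjusted p = 9.83e-06). The groups did not overlap for any of the 3, and pho92 replicate 1 was again the highest pho92 library, also for NDT80 (2172.5 CPM, against 1152.0 and 669.4 CPM). Without it the changes were -3.57 for CDC20, -3.01 for CDH1 and -2.40 for SGO1. AMA1 (-1.33, adjusted p = 0.00342), CDC5 (-1.21, adjusted p = 0.0198) and MAM1 (-0.93, adjusted p = 0.0229) passed with larger adjusted p. CDC5 and MAM1 did not overlap either, but AMA1 did, with 4941.1 CPM in its highest pho92 and 4939.8 CPM in its lowest WT library. SPO13 did not pass, yet lay higher in pho92 without overlap (427.6, 595.4 and 570.3 CPM, against 250.8, 362.3 and 358.5 CPM in WT). With only the 6 h libraries of the 2 strains fitted, AMA1 (adjusted p = 0.0785) and CDC5 (adjusted p = 0.0704) failed. CDC5 also failed without pho92 replicate 2 (-1.20), pho92 replicate 3 (-0.86) or WT replicate 2 (-1.13), and MAM1 without pho92 replicate 3 (-0.67) or WT replicate 2 (-0.83). With total counts (median over all genes 0.97), AMA1 (-0.52), CDC5 (-0.46) and MAM1 (-0.14) did not pass.

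At 7 h, 4 of the 9 passed, against 62.8% of all genes. The 3 activators were lower in pho92: CDC20 had 2388.4, 2015.1 and 1026.5 CPM in pho92 and 5604.1, 4820.6 and 4899.3 CPM in WT (-1.50, SE 0.44, adjusted p = 0.00277). AMA1 (-1.22, SE 0.40, adjusted p = 0.00761) and CDH1 (-1.16, SE 0.32, adjusted p = 0.00176) were lower too. LRS4 was higher (0.67, SE 0.15, adjusted p = 0.000232). CDC5 was at 0.33 (adjusted p = 0.544) and SGO1 at 0.38 (adjusted p = 0.288). AMA1 failed without pho92 replicate 3 (-0.94, adjusted p = 0.0574). With total counts, which moved the median over all genes from 0.06 to 0.90, none of the activators passed (CDC20 -0.75, AMA1 -0.48, CDH1 -0.43), while SGO1 (1.16) and CDC5 (1.13) passed as higher.

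At 9 h the 6 middle genes were higher in pho92 and none of the 9 was lower, while 57.1% of all genes passed. CDC5 had 1044.8, 1142.7 and 1429.3 CPM in pho92 and 362.7, 328.2 and 374.0 CPM in WT (1.76, SE 0.47, adjusted p = 0.00152). SGO1 (1.65, SE 0.32, adjusted p = 2.24e-05), MAM1 (1.40, SE 0.37, adjusted p = 0.00143) and CDH1 (1.01, SE 0.32, adjusted p = 0.00674) followed. For all 6 middle genes, CDC20 and AMA1 among them, the libraries of the 2 strains did not overlap. CDC20 (0.99, adjusted p = 0.046) and AMA1 (0.98, adjusted p = 0.0336) passed narrowly: CDC20 failed without any single strain's replicate other than ime4 replicate 3 and pho92 replicate 1 (0.81 to 1.10), with RLE factors (0.96, adjusted p = 0.0568) and with total counts (0.54). AMA1 failed without 5 of these replicates (0.80 to 1.05) and with total counts (0.54).

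Whether a mutant's difference itself changed between 6 and 9 h was tested as an interaction. It rose in ime4 for 8 of the 9 genes, against 81.0% of all genes that passed, and in pho92 for 6 of the 9, against 74.0% of all genes. CDC5 changed by 6.99 (SE 0.72, adjusted p = 2.83e-12) in ime4 and by 2.97 (SE 0.67, adjusted p = 0.000105) in pho92. CDC20 changed by 6.64 (SE 0.66) in ime4 and 3.62 (SE 0.62) in pho92, and CDH1 by 5.49 (SE 0.48) and 3.28 (SE 0.46). The 6 middle genes passed in both mutants. LRS4 (1.57, SE 0.22) and MND2 (1.90, SE 0.24) passed in ime4, and SPO13 (0.75, adjusted p = 0.273) did not. On total counts LRS4 (0.32), MND2 (0.63) and, in pho92, AMA1 (1.06, adjusted p = 0.0514) did not pass. Without ime4 replicate 3 CDC5 in ime4 changed by 7.82. Without pho92 replicate 1 the pho92 changes were 4.69 for CDC20, 4.20 for SGO1, 4.12 for CDH1, 3.65 for CDC5 and 2.97 for AMA1.

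The direct test of ime4 minus pho92 gave no gene of the 9 at 0, 2 or 3 h in edgeR's test or in DESeq2, with 0, 1 and 1 at an unadjusted p under 0.05, while 11.8%, 6.99% and 5.02% of all genes passed. At 5 h CDC5 (-1.94, adjusted p = 0.00289) and MAM1 (-1.42, adjusted p = 0.00537) were lower in ime4, against 18.7% of all genes, and neither passed without pho92 replicate 1 (CDC5 -0.52, MAM1 -0.70). At 6 h the 6 middle genes were lower in ime4, against 40.3% of all genes. CDC20 had 35.3, 27.1 and 56.0 CPM in ime4 and 884.6, 319.1 and 149.6 CPM in pho92 (-3.51, SE 0.47, adjusted p = 1.04e-07). CDC5 had 86.5, 71.3 and 266.0 CPM in ime4 and 2345.9, 1447.2 and 645.7 CPM in pho92 (-3.39, SE 0.51, adjusted p = 6.19e-07). Neither gene overlapped between the mutants. SGO1 (-2.06), MAM1 (-1.93), CDH1 (-1.74) and AMA1 (-0.97, adjusted p = 0.0481) followed. AMA1 failed without 5 of the single replicates and with total counts (-0.58, adjusted p = 0.182). With only these libraries fitted, both AMA1 (adjusted p = 0.143) and CDH1 (adjusted p = 0.0524) failed. Without pho92 replicate 1, CDC20 was at -2.58, SGO1 at -1.36 and CDH1 at -1.01, and without ime4 replicate 3 CDC5 was at -4.23.

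At 7 h, 7 of the 9 passed between the mutants, against 68.0% of all genes. CDC20 (-3.18, SE 0.46), SGO1 (-2.66, SE 0.33), CDH1 (-2.40, SE 0.33), AMA1 (-1.86, SE 0.41), CDC5 (-1.45, SE 0.47) and MAM1 (-0.83, SE 0.37) were lower and MND2 (0.61, SE 0.16) was higher in ime4. CDC5 failed without ime4 replicate 2 and was at -2.05 without ime4 replicate 3, where CDC20 was at -3.79. MAM1 failed without 4 of the single replicates and stood at 0.12 with total counts, with which CDC5 failed too. At 9 h the early genes alone passed, against 65.6% of all genes: MND2 (1.99, SE 0.18, adjusted p = 2.86e-13), SPO13 (1.52, SE 0.46, adjusted p = 0.00336) and LRS4 (1.15, SE 0.16, adjusted p = 1.63e-08) were higher in ime4. SPO13 had 199.3, 318.2 and 168.0 CPM in ime4 and 62.9, 69.6 and 106.5 CPM in pho92 at 9 h. LRS4 had 40.0, 57.9 and 33.5 CPM in ime4 and 20.8, 15.7 and 22.9 CPM in pho92. The mutants did not overlap in either gene. CDC20, at -0.50 (adjusted p = 0.31), did not pass, but did with only these libraries fitted (-0.6, adjusted p = 0.035).

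Successive times were also compared within each mutant. In ime4, 4 of the 9 passed as higher at 2 h than at 0 h and 6 as higher at 3 h than at 2 h, while 54.1% and 57.9% of all genes passed. The first step rested in part on ime4 replicate 3: without it SPO13 was at 2.20 in place of 3.34 and AMA1 at 1.11 (adjusted p = 0.0607) in place of 1.75. MAM1 alone passed between 3 and 5 h (1.63, adjusted p = 0.00139), against 24.0% of all genes. Between 5 and 6 h none passed in edgeR's test, nor did any other gene (0.0%), with 2 of the 9 at an unadjusted p under 0.05 and 2 passing in DESeq2. Between 6 and 7 h CDC5 (2.81, adjusted p = 0.000229), CDC20 (2.34, adjusted p = 0.000438), MAM1 (1.77, adjusted p = 0.00125) and CDH1 (1.36, adjusted p = 0.00415) were higher at 7 h, against 9.22% of all genes, and none of them passed with only these libraries fitted. MAM1 also failed without ime4 replicate 1 and CDH1 without ime4 replicate 1 or 3. Between 7 and 9 h, 7 of the 9 passed, against 75.4% of all genes: CDC20 (2.96, SE 0.46), CDH1 (2.64, SE 0.34), AMA1 (2.47, SE 0.42) and SGO1 (1.26, SE 0.31) were higher at 9 h and SPO13, MND2 and LRS4 lower. SGO1 failed at this step with total counts (0.31, adjusted p = 0.292). SPO13 (-1.12) failed in DESeq2 (-1.03, adjusted p = 0.0726) and without ime4 replicate 1 (-0.95, adjusted p = 0.123) or 3 (-0.97, adjusted p = 0.096).

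In pho92, 5 of the 9 were higher at 2 h than at 0 h and 6 higher at 3 h than at 2 h, while 56.3% and 56.9% of all genes passed. Without pho92 replicate 1 the first step was 3.18 for SPO13, in place of 4.72, and 1.44 for AMA1, in place of 2.36, and the second was 4.53 and 3.16 for these genes, in place of 3.22 and 2.39. Between 3 and 5 h MAM1 (1.90), CDC5 (1.92), CDC20 (1.21) and LRS4 (0.44) were higher at 5 h, against 32.3% of all genes, of which MAM1 alone passed without pho92 replicate 1. Between 5 and 6 h the 6 middle genes were higher at 6 h, against 17.4% of all genes, with CDC20 at 3.24 (SE 0.47, adjusted p = 4.42e-06) and CDC5 at 3.08 (SE 0.50, adjusted p = 7.76e-06). CDC5 was at 3.99 without pho92 replicate 1, and AMA1 (1.19) failed without ime4 replicate 1, pho92 replicate 1 or 2 or WT replicate 2. Between 6 and 7 h CDH1 (2.01), CDC20 (2.00), AMA1 (1.63) and SGO1 (1.36) were higher and MND2 (-0.72) and LRS4 (-0.46) lower at 7 h, against 64.8% of all genes. Without pho92 replicate 1, CDC20 was at 2.72 and SGO1 at 2.08, and LRS4 failed without it or pho92 replicate 2. With only the libraries of these pairs of times fitted, none of the 9 passed at either of the last 2 steps. Between 7 and 9 h, 5 were lower at 9 h, against 62.2% of all genes, led by MND2 (-2.08, SE 0.18), SPO13 (-1.80, SE 0.46) and LRS4 (-1.52, SE 0.16).

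Late mutant times were also set against WT at 6 h, a pairing of times chosen with earlier results of these data known. Between ime4 at 9 h and WT at 6 h, 3 of the 9 passed, all lower in ime4, while 45.8% of all genes passed. SGO1 had 335.1, 295.9 and 385.9 CPM in ime4 at 9 h and 960.0, 1286.2 and 1131.6 CPM in WT at 6 h, without overlap (-1.73, SE 0.32, adjusted p = 1.35e-05). MND2, with a mean of 48.7 CPM in ime4 at 9 h and 97.3 CPM in WT at 6 h (adjusted p = 2.73e-06), and LRS4 (-0.87, SE 0.15) were lower too. MAM1 was at -0.46 (adjusted p = 0.315) and AMA1 at 0.91 (adjusted p = 0.0582). AMA1 passed as higher in ime4 with total counts (1.07, adjusted p = 0.0156) and in DESeq2 (0.94, adjusted p = 0.0388). Between pho92 at 7 h and WT at 6 h, MND2 (-0.91, SE 0.16, adjusted p = 4.71e-05) and LRS4 (-0.51, SE 0.15, adjusted p = 0.00939) passed as lower in pho92, while 24.4% of all genes passed. LRS4 failed without pho92 replicate 1 (-0.39) or WT replicate 2 or 3 (-0.43 each), and neither passed with only these libraries fitted. A p above the threshold does not show that the other genes were at the same level.

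AMA1 held most of the activator RNA in every strain from 3 h on. Of the summed CPM per kb of AMA1, CDC20 and CDH1, AMA1 made up 94.2, 92.8 and 93.0% in ime4, 79.4, 82.5 and 87.2% in pho92, and 68.2, 64.5 and 63.8% in WT libraries at 6 h. CDC20 made up 2.31 ± 0.326% in ime4, 10.8 ± 3.13% in pho92 and 24.5 ± 2.39% in WT at 6 h (SD, n = 3). The 3 strains did not overlap in either share. At 9 h the AMA1 shares were 84.2 ± 0.152% in ime4, 84.8 ± 1.06% in pho92 and 84.8 ± 1.62% in WT, which lay within their spread.

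Between 5 and 7 h in WT, MND2, the inhibitor of APC/C-Ama1, went down while AMA1 went up. Before that both were higher at 5 h than at 0 h, and after it both were lower at 9 h than at 7 h. Their ratio was taken as AMA1 over MND2 in CPM per kb. The WT ratio averaged 0.329 ± 0.148 at 0 h and 6.80 ± 2.11 at 5 h (SD, n = 3). It then averaged 50.5 ± 28.2 at 6 h and 303.7 ± 44.4 in the 7 h libraries. At 7 h it was 18.0, 15.1 and 25.8 in ime4, 203.6, 115.8 and 48.6 in pho92, and 352.5, 292.7 and 265.8 in WT, and no 2 strains overlapped. At 9 h it was 196.8, 94.9 and 295.0 in ime4, 1080.9, 1058.0 and 544.6 in pho92, and 223.3, 448.1 and 436.5 in WT. The ime4 range overlapped that of WT at 9 h, and the pho92 range lay above both. MND2 itself had 44.5, 63.0 and 38.7 CPM in ime4 and 9.31, 10.6 and 17.2 CPM in pho92 at 9 h, while AMA1 had 14130.1, 9649.5 and 18429.9 CPM in ime4 and 16234.7, 18099.7 and 15090.4 CPM in pho92.

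**Figure D3:**
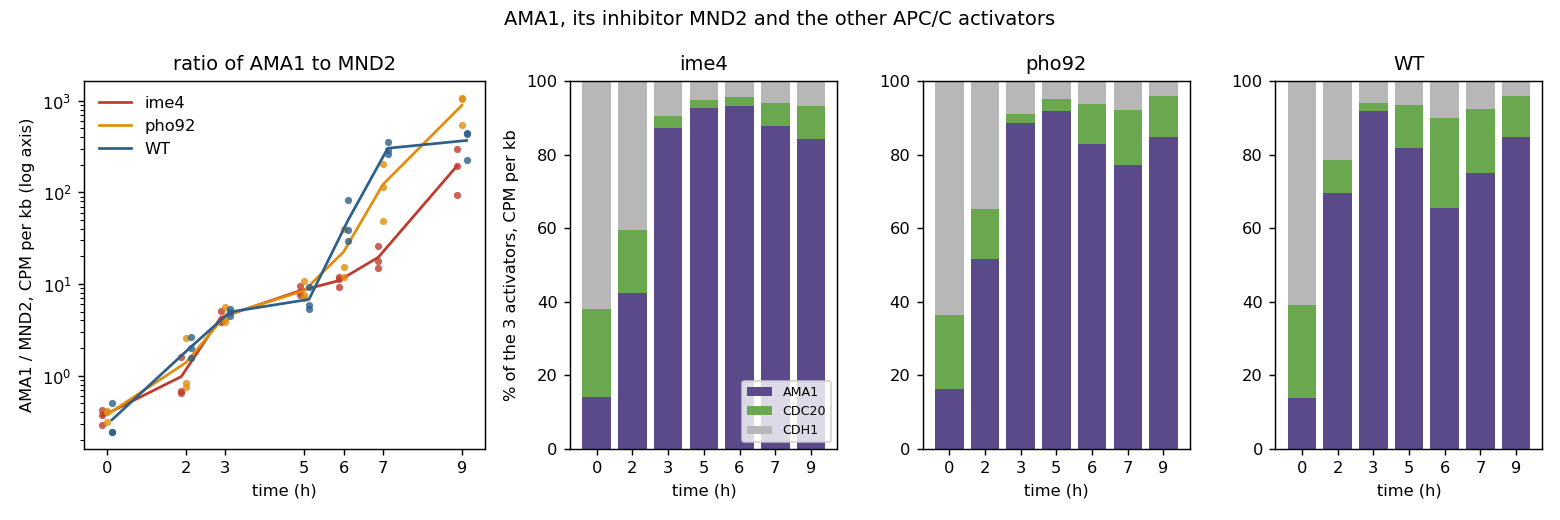
Left, the ratio of AMA1 to MND2 in CPM per kb on a log axis against hours, with points for libraries and lines for means of 3; right, the mean share of AMA1, CDC20 and CDH1 in their summed CPM per kb, in percent, for ime4, pho92 and WT. At 7 h the ratio is 15.1 to 25.8 in ime4, 48.6 to 203.6 in pho92 and 265.8 to 352.5 in WT, and at 6 h CDC20 takes 24.5% of the activator RNA in WT and 2.31% in ime4.

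Other genes of the pathway were taken from lists made with earlier results of these data known, and are given as counts beside values over all genes. The shares of all genes count both directions, where the list counts are given by direction. In ime4 against WT, 78.1% of all genes passed at 6 h (median change 0.21) and 80.2% at 9 h (median 0.31). In pho92 against WT, 70.7% passed at 6 h (median 0.12) and 57.1% at 9 h (median 0.07). Between 5 and 6 h in WT, 75.7% passed (median -0.18). Of 12 core subunits of the APC/C, 11 were lower in ime4 at 6 h (median -4.12) and 11 were higher at 9 h (median 1.73). In pho92 the counts were 11 lower at 6 h (median -2.17) and 11 higher at 9 h (median 1.13). CDC23, a TPR subunit, averaged 92.0 ± 16.6 CPM in ime4 and 1608.1 ± 386.9 CPM in WT at 6 h (-4.13, SE 0.33, adjusted p = 5.2e-15). SWM1 averaged 62.8 ± 15.2 CPM in ime4 and 1086.1 ± 155.4 CPM in WT (-4.11, SE 0.29, adjusted p = 1.78e-16; SD, n = 3). DOC1, the processivity factor, was the subunit that did not pass at 6 h in ime4 (0.12, adjusted p = 0.644) or in pho92 (0.29, adjusted p = 0.282), and it was named because it fell outside the count. In WT 11 of the 12 were higher at 6 h than at 5 h (median 2.68), and DOC1 was not (-0.50, adjusted p = 0.0584).

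The partners of Mam1 and Lrs4 in monopolin are Csm1 and Hrr25. HRR25 averaged 114.0 ± 17.2 CPM in ime4 and 3080.4 ± 500.8 CPM in WT at 6 h (-4.76, SE 0.37, adjusted p = 2.03e-15), and CSM1 42.8 ± 5.15 CPM in ime4 and 82.7 ± 11.5 CPM in WT (-0.95, SE 0.19, adjusted p = 1.58e-05; SD, n = 3). With total counts CSM1 turned to 0.22. HRR25 was higher in ime4 at 9 h (1.23, SE 0.32, adjusted p = 0.000594), and CSM1 did not pass (0.24). Of 8 genes for cohesin, its protection and its cleavage, 4 were lower and 3 higher in ime4 at 6 h (median -0.22). With total counts PPH22 (-0.80) and RTS1 (-0.51), both for subunits of the phosphatase PP2A, turned to 0.36 and 0.66. Securin (PDS1, -3.15) and separase (ESP1, -2.17) were among the lower ones and the cohesin subunit SMC1 (0.91) among the higher ones. At 9 h 7 of the 8 were higher and 1 was lower. The meiotic cohesin REC8 was then at 1318.6 ± 100.7 CPM in ime4 and 194.5 ± 23.4 CPM in WT (2.76, SE 0.45). SMC1 and REC8 were named after their values were seen.

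Among 7 APC/C inhibitors and spindle checkpoint genes, 5 were lower and 1 higher in ime4 at 6 h (median -1.23). The checkpoint kinase MPS1 was at -4.47, ACM1, an inhibitor of APC/C-Cdh1, at -2.80, and MAD1, named as the 1 higher gene after its value was seen, was at 1.01. With total counts the checkpoint genes MAD2 (-1.22), MAD3 (-1.23) and BUB3 (-1.47) stood at -0.07, -0.04 and -0.31. Of 12 genes of Cdc14 release, 6 were lower and 4 higher in ime4 at 6 h (median -0.42). SPO12 (-4.78), the phosphatase CDC14 (-3.39), DBF20 (-3.06) and MOB1 (-2.65) were among the lower ones. With total counts CDC15 (-1.10) and DBF2 (-0.51), also lower with TMM factors, turned to 0.06 and 0.67. At 9 h 8 were higher and 2 lower (median 1.21). Of the 2 splicing factors with a role at the AMA1 intron, NAM8 was lower in ime4 at 6 h (-1.68, adjusted p = 5.6e-11) and MER1, the meiosis-specific one, was at 0.36 (adjusted p = 0.375). Of 4 chromosome passenger genes 2 were higher in ime4 at 6 h and none lower (median 0.50).

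**Figure D4:**
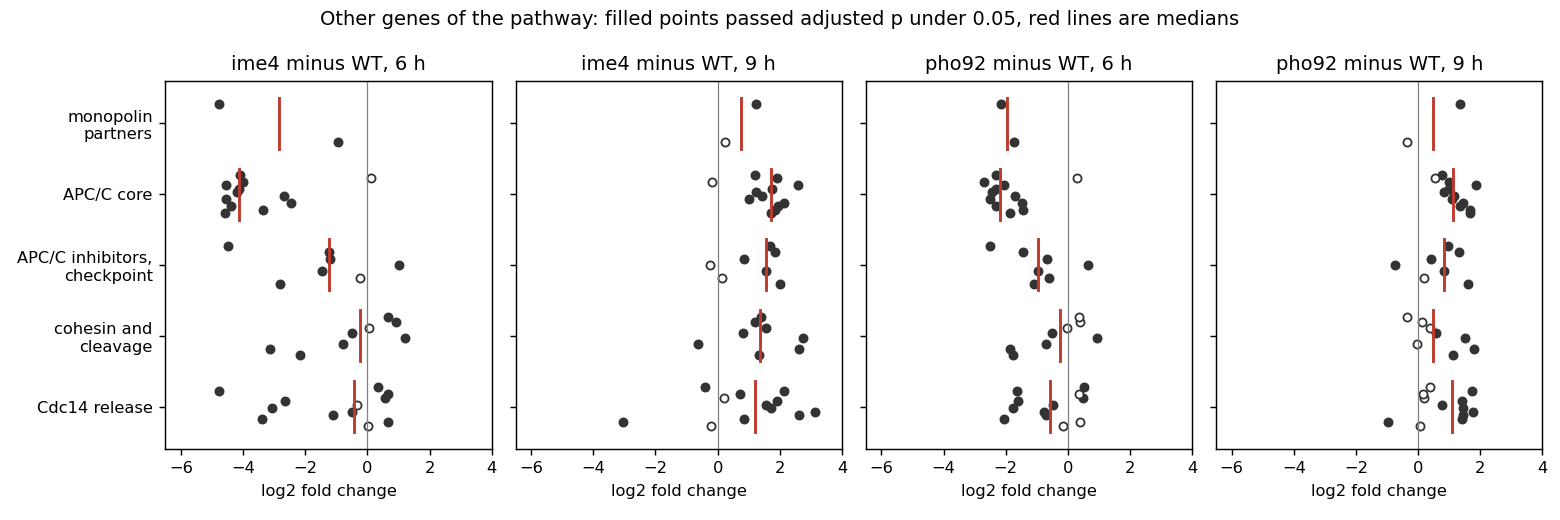
Log2 fold change of each gene in 5 pathway lists for ime4 minus WT and pho92 minus WT at 6 and 9 h; each point is a gene, filled where the adjusted p was under 0.05, and red lines are list medians. The APC/C core medians are -4.12 and 1.73 in ime4 and -2.17 and 1.13 in pho92, with DOC1 the open point at 6 h.

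Genes with the course most like that of each member were ranked by Pearson's r of mean log2 CPM over the 21 groups, which share libraries and scaling, so r is given as a description. SPO13 was most like SPO16 (r = 0.998) and HED1 (0.997), and LRS4 most like KAR4 (0.97) and MUB1 (0.965). MND2 was most like MDE1 (0.978) and PIB1 (0.972). Against NDT80 these early genes had an r of 0.514 (SPO13), 0.261 (LRS4) and -0.18 (MND2). MAM1 was most like LDS2 (0.996) and SPO23 (0.993), SGO1 most like PDS1 (0.982) and RIF1 (0.979), and CDC5 most like CBC2 (0.988) and SSP1 (0.986). AMA1 was most like RCK1 (0.979) and HES1 (0.978), CDC20 most like HYM1 (0.988) and ISC10 (0.987), and CDH1 most like RCI50 (0.995) and TGL3 (0.993). Against NDT80 the middle genes had an r between 0.812 (CDH1) and 0.97 (MAM1).

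In the authors' deposited table, made with DESeq2 per the submitters' processing notes, 7 of the 9 genes passed at an adjusted p under 0.05 at 6 h in ime4 and 8 at 9 h, where 6 and 7 passed in edgeR's test. For pho92 at 3 h 2 passed in the authors' deposited table and 1 in edgeR's test. The counts were equal at the other times.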

How the data were processed

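Polyadenylated RNA was sequenced in 63 libraries as single reads of 50 nt from a stranded kit, with 500 ng of total RNA each (per the labels' protocols). The software named in the submitters' processing notes was bcl2fastq 2.17.1.14, TopHat2 2.0.14, Bowtie, HTSeq 0.6.1, R 3.5.1 and DESeq2 1.22.1. Neither the labels nor the files state how strand was treated in counting, or the genome build. The deposited table holds raw read counts per gene, as the authors counted them. Its normalized signal columns, deposited by the authors, were not used. The authors' deposited log2 fold changes and p-values of each mutant against WT were used in 1 paragraph only.

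From the counts, 5822 of 6088 genes passed a filter (filterByExpr, minimum count 10), all 9 genes among them. They were fitted with edgeR 4.0.16 (quasi-likelihood, TMM factors, 21 groups, R 4.3.3), with Benjamini-Hochberg adjustment over all genes tested and a threshold of 0.05. TMM factors ran between 0.387 and 1.53. Alternatives were RLE factors, total counts, no filter, a replicate block, DESeq2 1.42.0, replicates left out, and a fit to the compared libraries alone. Replicates of a group differed by more than sampling noise, and are called biological in the series' design text, with no word on separate cultures, so p-values measure the spread between these samples. Deviations of same-numbered libraries from their group means went together for pho92 and WT at 5 h (r = 0.694, 0.163 and 0.447) and at 6 h (r = 0.583, 0.229 and 0.55), every r over 0.1. At no other time, and for no other pair of strains, were all 3 over 0.1, and the labels tie no number to a shared batch. Levels per kb used the deposited gene lengths. All 9 genes had the same start and end in the R64 reference of S288C, from which sequences were read.

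The 9 genes and the pathway lists were chosen with earlier results of these data known. The genes named were all 9, IME4, PHO92, NDT80 and IME1 as checks, up to 4 genes of each list by smallest adjusted p, and the 2 named genes most like each of the 9. Exceptions are marked in the text, apart from further list genes that were named for how their change moved with total counts. No column of per-sample values was left unassigned.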

Additional observations from a re-analysis of the deposited data

Results flagged for a closer look

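The values here are log2 differences that passed a test of the difference between strains or times, in edgeR's quasi-likelihood test. None is explained, and the share of all genes passing each test is given with the results above.

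The ime4 minus WT difference at 9 h less that at 6 h was 6.99 for CDC5, 6.64 for CDC20, 5.49 for CDH1, 5.18 for SGO1, 4.87 for MAM1, 3.06 for AMA1, 1.90 for MND2 and 1.57 for LRS4. The pho92 minus WT difference over the same times changed by 3.62 for CDC20, 3.34 for SGO1, 3.28 for CDH1, 2.97 for CDC5, 2.33 for MAM1 and 2.31 for AMA1.

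Between the mutants, ime4 minus pho92 at 5 h was -1.94 for CDC5 and -1.42 for MAM1. At 6 h it was -3.51 for CDC20, -3.39 for CDC5, -2.06 for SGO1, -1.93 for MAM1, -1.74 for CDH1 and -0.97 for AMA1. At 7 h it was -3.18 for CDC20, -2.66 for SGO1, -2.40 for CDH1, -1.86 for AMA1, -1.45 for CDC5 and -0.83 for MAM1, and 0.61 for MND2. At 9 h it was 1.99 for MND2, 1.52 for SPO13 and 1.15 for LRS4.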

How the results depend on the processing

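Of 192 calls among the 9 genes in 43 comparisons, 189 were kept with RLE factors, 189 in DESeq2, 192 with no filter, 159 with total counts and 161 with the compared libraries fitted alone. Between 172 and 187 were kept without 1 replicate of a strain, and between 150 and 180 without a replicate number in all strains. The replicate block, fitted over all libraries, kept 192. Its effect of a replicate number is shared by all strains and times. It therefore cannot take up a pairing of pho92 and WT at 5 and 6 h alone, where the numbers went together. Whether those calls hold with that pairing was not tested. Over all 63 pairs the correlation of deviations had a median of -0.103 (-0.651 to 0.694) and exceeded 0.1 in 17. With the block AMA1 in ime4 at 9 h minus WT at 6 h passed (0.94, adjusted p = 0.0323).

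With total counts alone, 7 log2 values changed sign, for which the cause was not tested: ime4 minus WT at 6 h for LRS4 (0.85) and MND2 (0.95), at 7 h for MAM1 (0.73) and CDC5 (0.62), and at 9 h less 6 h for SPO13 (-0.49), ime4 minus pho92 at 7 h for MAM1 (0.12), and WT at 9 h minus 7 h for LRS4 (0.02).

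Counts of the 9 genes called moved by over 1.5 times as follows, and the cause was not tested. Total counts gave 2 in place of 4 for ime4 minus WT at 3 h, 5 in place of 3 for ime4 minus pho92 at 9 h, and 1 in place of 2 for pho92 at 7 h minus WT at 6 h. For pho92 minus WT at 3 h, RLE factors and DESeq2 gave 2 each in place of 1, and DESeq2 gave 2 in place of 0 for ime4 at 6 h minus 5 h. With the compared libraries alone, which leave fewer samples to estimate the spread, the count was 7 in place of 4 for ime4 minus WT at 3 h, 6 in place of 1 for pho92 minus WT at 3 h, 1 in place of 0 for ime4 minus pho92 at 0 h and 6 in place of 3 at 9 h, 8 in place of 5 for WT at 2 h minus 0 h, 2 in place of 1 for ime4 at 5 h minus 3 h, 0 in place of 4 for ime4 at 7 h minus 6 h, 0 in place of 6 for pho92 at 6 h minus 5 h and at 7 h minus 6 h, and 0 in place of 2 for pho92 at 7 h minus WT at 6 h.

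With replicates left out, the count ranged from 0 to 4 for ime4 minus WT at 2 h and at 3 h, 0 to 3 for pho92 minus WT at 2 h, 0 to 2 at 3 h, and 3 to 6 at 6 h and at 9 h. For ime4 minus pho92 it ranged from 0 to 2 at 2 h, 0 to 1 at 3 h and 0 to 4 at 5 h. It ranged from 3 to 7 for WT at 7 h minus 6 h, 0 to 1 for ime4 at 5 h minus 3 h, 0 to 2 at 6 h minus 5 h and 2 to 4 at 7 h minus 6 h, 1 to 4 for pho92 at 5 h minus 3 h, 3 to 6 at 9 h minus 7 h, and 1 to 2 for pho92 at 7 h minus WT at 6 h. Per library at 0 h, SPO13 had 8 to 59 counts and MAM1 26 to 60 counts, which limits the precision of their levels there.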
